A study of Schizosaccharomyces pombe with 4 samples.

Results

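Stretches of the fission yeast chromosome arms that took up little bromodeoxyuridine (BrdU), a thymidine analogue built into newly made DNA, were examined as windows of 2 kb. A window was included when the log2 ratio of BrdU-immunoprecipitated DNA over input DNA, centred on the median of each array and averaged over all 4 arrays, was below -1. It also had to hold at least 3 probes, lie over 100 kb from the outermost probes of its chromosome, and lie outside fixed stretches of 250 kb (chromosomes 1 and 2) and 270 kb (chromosome 3) that hold the centromeres and their flanks. Of 6223 windows on the 3 chromosomes, 5567 were open to this rule and 402 met it. They are called BrdU-poor interior windows here, because uptake was measured at a single time in hydroxyurea and no time course of replication was measured. Adjacent windows were merged into domains.

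Replication starts at origins that are licensed in G1 and fire at different times in S phase. Hydroxyurea starves forks of deoxynucleotides, and in fission yeast the checkpoint kinases Rad3 and Cds1 then keep late origins from firing, so that BrdU marks the surroundings of early origins while DNA far from them, or at late origins, takes up little. In this species the telomere-binding protein Taz1 and the protein Rif1 are known to hold back late origins in the arms as well as near the chromosome ends. Fft3 is a chromatin remodeller of the SNF2 family, and the series title names replication of the genome among the processes it serves.

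The series held 4 arrays of 60-base probes read in 2 colours, 2 from wild-type cells and 2 whose labels name a deletion of fft3 (fft3Δ), with an array of each genotype in series 1 and in series 2. Both genotypes carried cdc25-22 (Cdc25 is the phosphatase that triggers mitosis, and this allele fails when warmed), a thymidine kinase driven by the nmt1 promoter, and the human nucleoside transporter hENT driven by the adh1 promoter, which together let the cells use BrdU. All cultures were held in minimal medium at 37 °C for 4 h and 15 min, brought back to 26 °C with 10 mM hydroxyurea and 200 µM BrdU, and labelled as the 120 min point, collected when septation was highest. Azide was also listed for all 4 samples, at the same concentration. On every array Cy5 marked the immunoprecipitate and Cy3 the input, DNA of the whole-cell extract, with no dye swap. Nothing in the labels tells if series 1 and 2 came from separate cultures, so a p-value measures only the spread between these arrays, and their number limits the precision.

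The Cy3 signal of the median probe was 17.1 to 217 times its local background, highest on wild-type array 2, whose signals were extracted with another software version. The deletion named in the labels was not seen in the input. The fft3 gene spans 12 probes of this design by its length of 3611 bp. Among 41218 runs of 12 adjacent probes the lowest median input difference reached in both series was -0.28 on the log2 scale. Taken alone, series 1 reached -0.45 and series 2 reached -1.31, the latter in a run that was not as low in series 1. The arrays are therefore called labelled fft3Δ, and every direction below is that of the label. The files name no genome build and give no gene for a probe. Positions follow the array design, with the first base as 1, and the last probe of chromosome 3 (2453700) lies past the end of the reference chromosome in ASM294v3 (2452883 bp), so no gene was placed and no sequence was read by position.

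The BrdU-poor windows were low on every array, but not equally. Wild-type array 1 had a median log2 ratio of -1.33 over the 402 windows, between -2.36 and -0.82. Wild-type array 2 had a median of -1.13, between -2.16 and -0.46. On the labelled fft3Δ arrays the medians were -1.28 on array 1, between -2.40 and -0.70, and -1.26 on array 2, between -2.32 and -0.81. The 2 labelled fft3Δ arrays lay between the 2 wild-type arrays, of which array 2 was the shallowest of the 4. These levels were used by the rule and are given as a description.

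A value below -1 was found in 392 of the 402 windows on wild-type array 1 (97.5%) and in 276 on wild-type array 2 (68.7%). The counts were 351 (87.3%) and 371 (92.3%) on labelled fft3Δ arrays 1 and 2. All 4 arrays were below -1 in 224 windows, 3 arrays in 139, 2 in 38 and a single array in 1. In 103 of the windows that fell short on 1 array, that array was wild-type array 2. The 5 windows just inside the threshold had means between -1.006 and -1.002, and the 5 interior windows just outside it between -0.999 and -0.996, so the windows continue without a gap into the rest of the interior. Of the members, 217 lay within 0.25 of the threshold, 91 below -1.5 and 12 below -2.

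The low ratio came mainly from the immunoprecipitate. The Cy5 signal, centred on each array's median, averaged -1.63 and -1.14 on wild-type arrays 1 and 2 and -1.62 and -1.56 on labelled fft3Δ arrays 1 and 2. The input averaged -0.31 and 0.025 on the wild-type arrays and -0.39 and -0.28 on the labelled ones, against -0.045 to -0.010 in the other 5165 interior windows. Input was thus lower in the BrdU-poor windows on 3 arrays and not on wild-type array 2, where the input changed little with uptake. From the 91 interior windows with a mean ratio under -1.5 to the 41 above 1, the input rose from -0.403 to 1.19 on wild-type array 1. On wild-type array 2 it rose from -0.0077 to 0.095. In the 899 windows between 0.5 and 1 it was 0.38 on wild-type array 1 and 0.0046 on wild-type array 2. The BrdU-poor windows were not at the background of the scan, but a floor set by DNA immunoprecipitated without BrdU was not measured. All 2680 of their probes were well above background in both channels of every array, and the median Cy5 signal was still 18.4, 545, 17.1 and 25.4 times the local background on wild-type arrays 1 and 2 and labelled fft3Δ arrays 1 and 2, compared with 53.2, 1183, 49.1 and 70.3 times in the other interior windows.

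BrdU-poor windows were unevenly spread over the chromosomes. Chromosome 1 held 247 of its 2552 interior windows (9.68%), chromosome 2 held 153 of 2027 (7.55%), and chromosome 3, the shortest, held 2 of 988 (0.202%). The interior of chromosome 3 also had a higher median level, at 0.38 over the 4 arrays against -0.097 on chromosome 1 and -0.078 on chromosome 2. With each chromosome centred on its own median, an alternative added after seeing the data, 193, 104 and 7 windows of chromosomes 1, 2 and 3 were below -1. The share fell with distance from the chromosome ends of chromosomes 1 and 2, from 90 of 399 windows at 100 to 300 kb (22.6%) to 117 of 1397 at 300 to 1000 kb (8.38%) and 193 of 2783 beyond 1000 kb (6.94%).

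Within the arms the windows were concentrated in a few stretches. In bins of 250 kb, 9 of the 39 bins of chromosomes 1 and 2 held no BrdU-poor window, while 5 bins held 154 of the 402. The densest was 250001 to 500000 of chromosome 1, with 49 of 125 windows (39.2%), followed by 2500001 to 2750000 of chromosome 1, with 42 of 125 (33.6%). The others were the innermost part of the first 250 kb of chromosome 2 (19 of 74 windows), 4250001 to 4500000 of chromosome 2 (20 of 80) and 5250001 to 5500000 of chromosome 1 (24 of 112). The 7 domains between 216001 and 424000 of chromosome 1 were the farthest from strong uptake, with the nearest window above 0.5 at 288 to 478 kb.

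Merging gave 92 domains, which together covered 804 kb, 7.22% of the interior. Their median length was 4 kb. Lone windows made up 34 of them, and the 58 domains of at least 2 windows had a median of 11 kb. The 35 domains of at least 5 windows held 306 of the 402 windows (76.1%), and the 10 domains of at least 10 windows held 146. The longest was 42 kb. The nearest window with a mean of at least 0 was a median of 14 kb beyond the border (0 to 70 kb), and the nearest above 0.5 a median of 52 kb (0 to 478 kb).

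**Figure D1:**
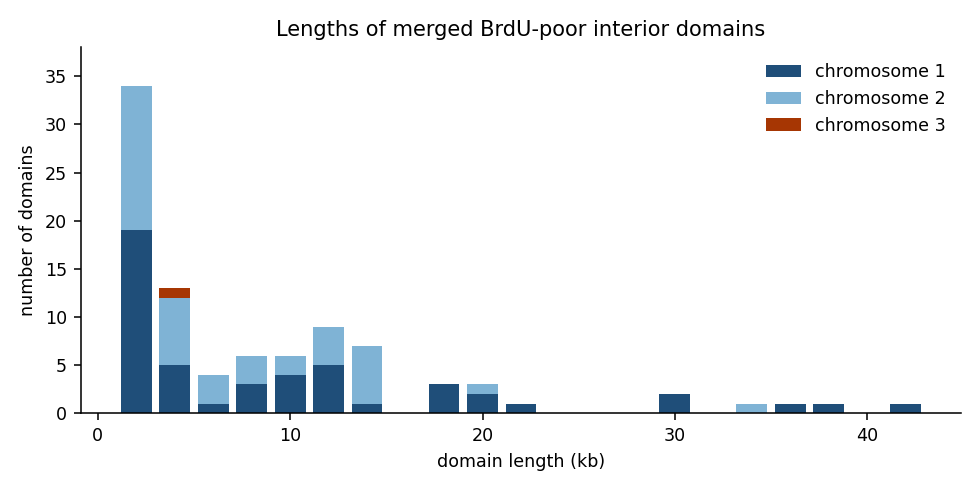
Number of merged BrdU-poor interior domains (vertical axis) by length in kb (horizontal axis), stacked by chromosome. The 34 lone windows form the bar at 2 kb, and the longest domain, on chromosome 1, is 42 kb; chromosome 3 has 1 domain, of 4 kb.

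The longest domains were low on all 4 arrays. The domain at 5260001 to 5302000 of chromosome 1 (42 kb) had mean log2 ratios of -1.64 and -1.497 on wild-type arrays 1 and 2 and -1.497 and -1.58 on labelled fft3Δ arrays 1 and 2. At 386001 to 424000 of chromosome 1 (38 kb) the values were -1.48 and -1.23 in wild type and -1.40 and -1.47 in the labelled arrays. At 4672001 to 4708000 of chromosome 1 (36 kb) they were -1.76 and -1.46, and -1.73 and -1.77. The genotypes overlapped in all 3, and the difference of -0.14 in the last was smaller than the wild-type SD of 0.21.

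The longest domain of chromosome 2, at 866001 to 900000 (34 kb), had -1.43 and -1.12 in wild type and -1.31 and -1.37 in the labelled arrays. The 2 domains of 30 kb, at 244001 to 274000 and 2532001 to 2562000 of chromosome 1, had means of -1.37 and -1.18 over the 4 arrays. The remaining 4 of the 10 longest were 20 to 22 kb long. On chromosome 1 they lay at 286001 to 308000, 2682001 to 2702000 and 3342001 to 3362000, and on chromosome 2 at 3002001 to 3022000. In 9 of the 10, the labelled fft3Δ arrays differed from wild type by -0.14 to 0.055, and the exception was the domain at 3342001.

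The lowest windows were not in the domains over 20 kb. On chromosome 1 they were 2658001 to 2660000 and 2660001 to 2662000, neighbours in a domain of 18 kb. The first had -2.33 and -1.88 on wild-type arrays 1 and 2 and -2.38 and -2.32 on labelled fft3Δ arrays 1 and 2, and the second -2.36 and -1.80, and -2.40 and -2.32. On chromosome 2 the lowest, at 3010001 to 3012000, had -2.21 and -1.57 in wild type and -2.23 and -2.24 in the labelled arrays. In all of these, wild-type array 2 stood above the other 3 arrays, whose values were closer to each other than to it.

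On chromosome 2 the next lowest window, 3012001 to 3014000, adjoined that one, with -2.25 and -1.56 in wild type and -2.12 and -2.02 in the labelled arrays. The only domain of chromosome 3, at 2316001 to 2320000, lay 134 kb from the last probe. Its 2 windows had means of -1.15 and -1.01 over the 4 arrays, close to the threshold.

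The comparison of genotypes asked whether BrdU uptake in these regions differed without Fft3. The rule used the mean of the 4 arrays and not this difference. Over the 402 windows the mean log2 ratio was -1.41 on wild-type array 1, -1.17 on wild-type array 2, -1.33 on labelled fft3Δ array 1 and -1.35 on labelled fft3Δ array 2. Wild type thus averaged -1.29 ± 0.17 and the labelled arrays -1.34 ± 0.009 (SD, n = 2 each). The difference of -0.051 was smaller than the spread of 0.24 between the 2 wild-type arrays, which lay on either side of both labelled arrays (exact permutation p = 1, two-sided; the smallest that 2 arrays against 2 allow is 0.33).

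The sign of the difference depended on the series. It was 0.073 in series 1, whose arrays share a slide, and -0.18 in series 2. Without wild-type array 2 it was 0.067 and without wild-type array 1 -0.17. In the 5165 other interior windows the genotypes differed by -0.0087. Beyond that of the other interior windows, the difference at BrdU-poor windows was -0.043 (0.068 in series 1, -0.15 in series 2; exact permutation p = 1), and without wild-type array 2 it was 0.067. When windows were chosen in series 1 and read in series 2, the difference was -0.198 over 465 windows, and when chosen in series 2 and read in series 1 it was 0.095 over 374 windows.

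**Figure D2:**
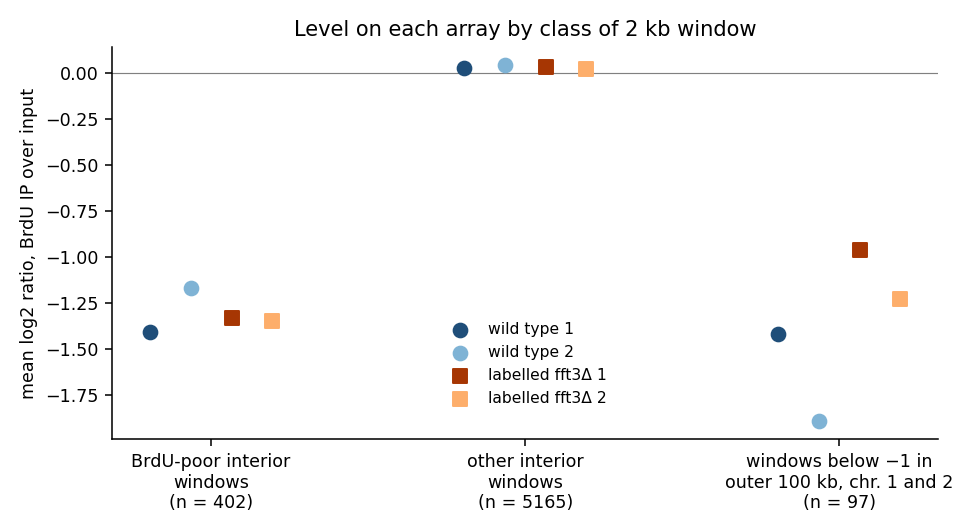
Mean log2 ratio of BrdU immunoprecipitate over input (vertical axis) on each of the 4 arrays for 3 classes of 2 kb window; circles are wild type, squares labelled fft3Δ. In the BrdU-poor interior windows the labelled arrays (-1.33 and -1.35) lie between the wild-type arrays (-1.41 and -1.17), whereas in windows under the same threshold in the outer 100 kb of chromosomes 1 and 2 both labelled arrays lie above both wild-type arrays.

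The contrast between the series was present in both channels. In series 1 the Cy5 signal of the BrdU-poor windows differed by 0.0044 and their input by -0.078. In series 2 these differences were -0.42 for Cy5 and -0.31 for the input. On wild-type array 2 both channels were closer to the median than on the other arrays. The part of this array in the genotype difference within series 2 cannot be told apart from the genotype, as that series holds no other wild-type array.

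No single window was called. In limma, 0 of all 6223 windows (0%) reached the adjusted threshold of 0.05, so 0 of the 402 BrdU-poor windows did, with a lowest adjusted p of 0.885. An unadjusted p under 0.05 was found in 8 of the 402, against 5% of all windows. Of these, 6 were higher in the labelled arrays (3.82% of all windows) and 2 lower (1.17%). With the series as a block, 2 of the 402 passed the adjusted threshold, against 2.97% of all windows. Both were lower (0.434% of all windows) and none higher (2.54%). At an unadjusted p under 0.05 the block gave 38 of the 402 (9.45%), 14 higher and 24 lower, where all windows gave 13.2%, 8.18% and 5.03%. The window differences had a median of -0.063 over the BrdU-poor windows and -0.015 over all windows, and 264 of 402 were negative (65.7%) against 53.6% of all windows.

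Groups of arrays separated no more often in these windows than elsewhere. Both labelled arrays lay on the same side of both wild-type arrays in 107 of 402 windows (26.6%), 51 above and 56 below, where the shares over all windows were 34.5%, 15.4% and 19.2%. The 2 series gave the same sign in 205 of 402 (51.0%), against 58.2% of all windows, with 79 higher and 126 lower, against 27.2% and 31% of all windows.

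By domain, 49 of the 92 were lower and 43 higher in the labelled arrays, with differences from -0.36 to 0.37 and a median of -0.016. In series 1, 74 of the 92 domains were higher, and in series 2, 70 were lower. The sign was the same in both series in 34 domains, 15 lower and 19 higher. Over domains, the median SD between the wild-type arrays was 0.14, larger than the median absolute difference between genotypes of 0.092, and wild-type array 1 was below wild-type array 2 in 77 of the 92.

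**Figure D3:**
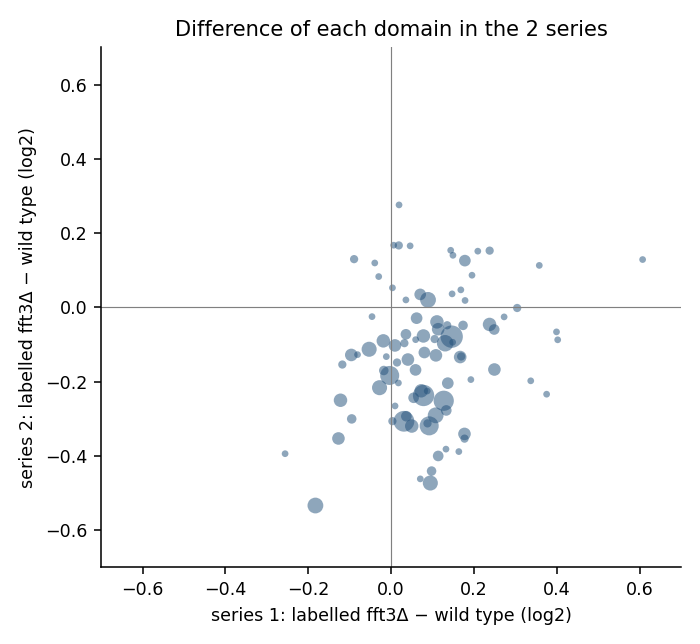
Difference in mean log2 ratio, labelled fft3Δ minus wild type, of each of the 92 BrdU-poor domains in series 1 (horizontal axis) and series 2 (vertical axis); the area of a point grows with the number of windows. Most domains lie to the right of 0 in series 1 (74) and under 0 in series 2 (70).

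Of the 58 domains of at least 2 windows, 16 had the same sign in both series, 11 lower and 5 higher in the labelled arrays. The largest fall in value was at 3342001 to 3362000 of chromosome 1, where wild-type arrays 1 and 2 had -1.81 and -1.23 and labelled fft3Δ arrays 1 and 2 -1.99 and -1.76. Wild-type array 1 lay below labelled array 2, so the groups overlapped. The difference of -0.36 was -0.18 in series 1 and -0.53 in series 2, against a wild-type SD of 0.41 (exact permutation p = 0.67), and it was -0.067 without wild-type array 2 and -0.65 without wild-type array 1. Its first 2 windows, at 3342001 and 3344001, were the 2 that passed with the series as a block (limma, adjusted p = 0.0082 and 0.023). Their differences were -0.55 and -0.50, and without the block their limma adjusted p was 0.885 each. The first had -1.10 and -0.46 on wild-type arrays 1 and 2 and -1.61 and -1.06 on labelled arrays 1 and 2. The second had -1.380 and -0.70, and -1.70 and -1.376. In both, wild-type array 1 lay below labelled array 2, so the groups overlapped, and wild-type array 2 was the highest.

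This domain also had an unusual border. On its right, the window at 3362001 to 3364000 had ratios of 0.51 and 0.91 in wild type and 0.56 and 0.48 in the labelled arrays, after -1.74, -1.23, -1.99 and -1.76 in the last window of the domain. The input of that window was 3.10, 1.32, 3.08 and 2.74 above the median on wild-type arrays 1 and 2 and labelled arrays 1 and 2. A mean input over 2, a level chosen after seeing the data, was found in 19 interior windows, none of them BrdU-poor, and directly beside 1 of the 92 domains, this one. The part of the high input in the step at this border was not tested.

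The next 4 falls shared by both series were in domains of 4 to 14 kb on chromosome 1. The difference was -0.24 at 620001 to 632000, -0.198 at 858001 to 864000, -0.19 at 4362001 to 4376000 and -0.14 at 5372001 to 5376000. At 620001 the wild-type arrays had -1.44 and -1.19 and the labelled arrays -1.57 and -1.54, without overlap, and the same held at 4362001, while the groups overlapped at the other 2. Without wild-type array 2 the difference at 858001 was 0.0032 and that at 5372001 was 0.016, so neither kept its direction, while those at 620001 and 4362001 were -0.11 each. Without wild-type array 1 the 4 differences were larger, at -0.37, -0.399, -0.26 and -0.29 in order of position. The 5 domains higher in both series differed by 0.052 to 0.195. On chromosome 1 the difference was 0.052 at 2146001 to 2156000, 0.15 at 2404001 to 2414000 and 0.055 at 2682001 to 2702000. On chromosome 2 it was 0.093 at 216001 to 220000 and 0.195 at 3698001 to 3702000. At 2404001 to 2414000 the wild-type arrays had -1.36 and -1.39 and the labelled arrays -1.18 and -1.27, so the groups did not overlap there. At 3698001 to 3702000 they had -1.11 and -1.16, and -0.87 and -1.01. The groups were also separate there, at 2682001 and at 216001 of chromosome 2, and overlapped at 2146001. At 2404001 the Cy5 difference was 0.022 (0.097 in series 1, -0.052 in series 2), beside -0.17 in the input. At 2146001 it was 0.052, beside -0.037 in the input. In 3 of these 5 domains the Cy5 signal alone was lower in the labelled arrays, with differences of -0.11 at 2682001, -0.27 at 216001 and -0.14 at 3698001, beside a larger fall of the input (-0.197, -0.3997 and -0.376). The direction also turned at 2146001 with centring on the mode (-0.025) or without wild-type array 1 (-0.012), and at 2682001 with loess (-0.015) or centring on the mode (-0.023). With 2 arrays a group, the exact permutation test cannot call any of these. They were named for the sign and size of this difference, so a lack of overlap in some of them is a description only. Among all 92 domains, the groups were separate in 7 that were lower and in 15 that were higher in the labelled arrays. Over all single windows of the array, the groups were separate and lower in 19.2% and separate and higher in 15.4%. Domains average several windows, so the counts are a description only.

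The spread between the wild-type arrays grew with the depth of the windows. Interior windows with a mean under -1.5 averaged -1.86 and -1.55 on wild-type arrays 1 and 2 and -1.78 and -1.804 on labelled fft3Δ arrays 1 and 2. Between -1.5 and -1 the values were -1.27 and -1.06, and -1.203 and -1.21, and between -1 and -0.5 they were -0.78 and -0.65, and -0.73 and -0.74. The gap between the wild-type arrays shrank from 0.31 to 0.21 and 0.13 over these 3 levels, and the difference between genotypes stayed smaller, at -0.086, -0.041 and -0.023. Above 1, wild-type array 2 was the highest of the 4, at 1.21 against 0.97 to 1.13.

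**Figure D4:**
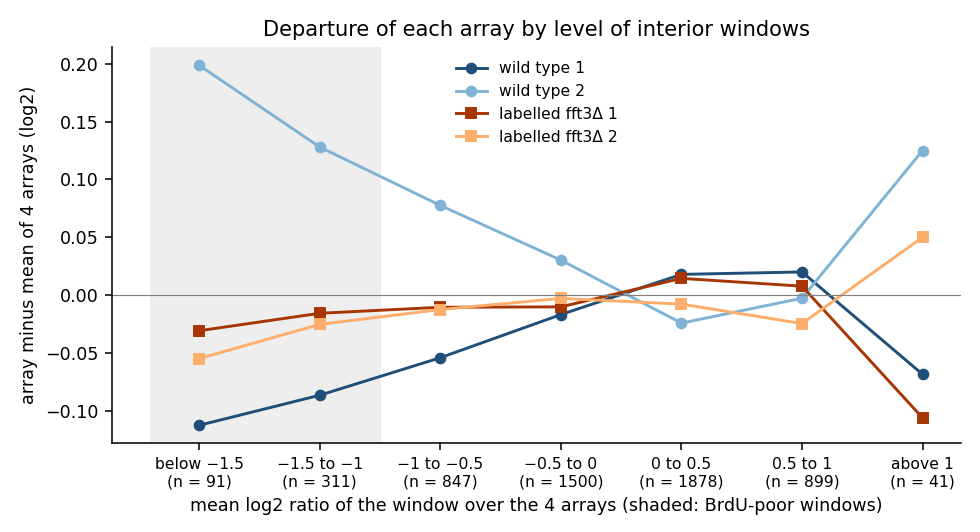
Departure of each array from the mean of the 4 arrays (log2, vertical axis) for interior windows grouped by that mean (horizontal axis, number of windows in brackets); the BrdU-poor windows are shaded. The 2 wild-type arrays depart in opposite directions in the BrdU-poor windows, and both labelled fft3Δ arrays lie between them.

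Signal rose gradually outside the domains. At the 90 borders of the 45 domains of at least 3 windows, the last window inside averaged -1.15 ± 0.14 in wild type and -1.18 ± 0.003 in the labelled arrays, and the first outside -0.81 ± 0.07 and -0.84 ± 0.007 (SD, n = 2 each). The step at the border itself is set by the rule. Farther out, from 3 to 23 kb, 74 to 80 windows were averaged at each distance, so the sets of borders are not the same throughout. At 5 kb from the border the means were -0.51 ± 0.002 and -0.496 ± 0.02, and at 11 kb -0.28 ± 0.07 and -0.22 ± 0.04. From 11 to 23 kb the labelled arrays were higher by 0.035 to 0.068, with the same sign in both series, but wild-type array 1 lay above labelled array 2 at each of these distances (exact permutation p = 0.67 each). The level stayed between -0.24 and -0.095 on all arrays from 15 to 23 kb, below the median of the array.

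**Figure D5:**
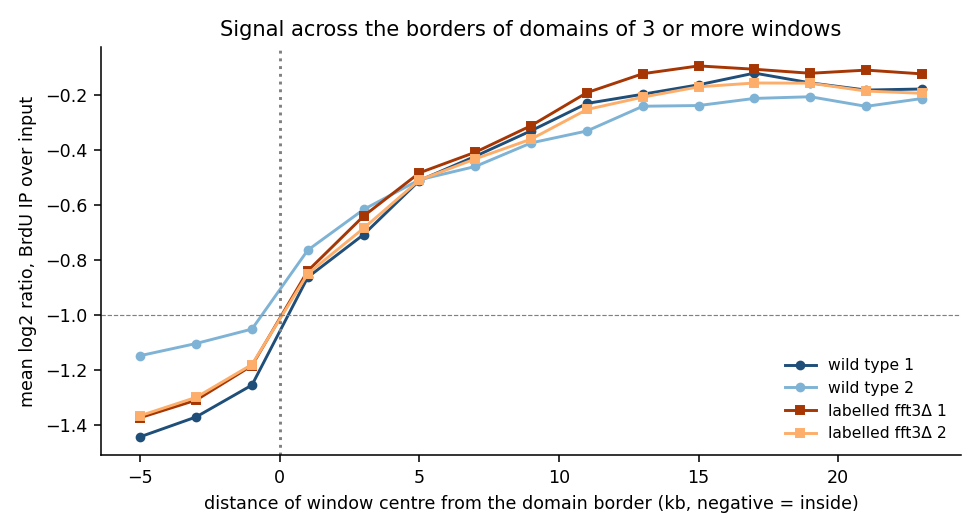
Mean log2 ratio on each array (vertical axis) by distance of the window's centre from the border of domains of at least 3 windows (horizontal axis, kb; negative is inside). Inside, wild-type array 2 is the shallowest (-1.05 in the last window) and wild-type array 1 the deepest (-1.26); from 7 kb outwards wild-type array 2 is the lowest of the 4.

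The mean width of the low stretches differed little between genotypes, while some single domains differed by far more, in both directions. Measured from the lowest window of each of the 45 domains outwards to a ratio of -0.5, on means of 3 adjacent windows, the stretch averaged 47.0 and 47.3 kb on wild-type arrays 1 and 2 and 46.4 and 48.3 kb on labelled fft3Δ arrays 1 and 2. The difference of 0.16 kb was smaller than the spread between the labelled arrays (exact permutation p = 1), and it ranged from -0.80 to 1.11 kb without 1 array, negative without labelled array 2. The median widths ran the other way, at 48 and 42 kb in wild type and 40 and 44 kb in the labelled arrays, a difference of -3 kb (exact permutation p = 0.67). By domain, 23 were wider, 18 narrower and 4 equal in the labelled arrays. In series 1, 8 were wider and 18 narrower, and in series 2, 24 were wider and 11 narrower. Neighbouring domains can share such a stretch, so they are not independent. Both labelled arrays were wider than both wild-type arrays in 2 of the 45 domains and narrower in 2. On chromosome 1 the difference was -28 kb at 2146001 and -21 kb at 2098001 and 2110001. In these domains wild-type array 2 spanned 84 kb and the other arrays 30 to 44 kb. On chromosome 2 it was 17 kb at 2862001 and 2870001, with -8 kb in series 1 and 42 kb in series 2.

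The largest difference in width was at 4672001 to 4708000 of chromosome 1, where the stretch spanned 60 and 58 kb on wild-type arrays 1 and 2 and 104 and 102 kb on labelled fft3Δ arrays 1 and 2. The difference was 44 kb in each series, and without this domain the mean difference over the other 44 was -0.84 kb. The wild-type stretches began at 4662001 and 4660001, and those of both labelled arrays at 4618001, past a ridge close to the level of -0.5. On that ridge, at 4658001 to 4660000, the mean of 3 windows was -0.43 and -0.495 in wild type, just above the level, and -0.53 and -0.59 in the labelled arrays, just below it. On the far side of the ridge all 4 arrays were again low, with -1.14, -0.92, -0.95 and -1.14 at 4648001 to 4650000 on the same scale.

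The sets of BrdU-poor windows largely overlapped between genotypes and between arrays. The mean of the wild-type arrays was below -1 in 403 interior windows and that of the labelled arrays in 425, with 337 in both, 83.6% and 79.3% of the 2 sets. Single arrays gave 485 and 342 windows in wild type, of which 277 were shared (57.1% and 81.0%), and 441 and 434 in the labelled arrays, of which 347 were shared (78.7% and 80.0%). Over the 5567 interior windows the ratios of any 2 arrays correlated at 0.85 to 0.98. Within the 402 they correlated at 0.54 to 0.91, lowest for wild-type array 2 with labelled fft3Δ array 1. These correlations are across windows, which come from the same input DNA on an array and are read by the same probes on every array.

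Windows under the same threshold near the chromosome ends were compared with these. In the outer 100 kb of chromosomes 1 and 2, 97 windows met the same threshold of -1. Their mean was -1.42 and -1.89 on wild-type arrays 1 and 2 and -0.96 and -1.23 on labelled fft3Δ arrays 1 and 2. This was a difference of 0.56 (0.46 in series 1 and 0.67 in series 2). The higher ratio came with both a higher Cy5 signal and a lower input. In the Cy5 signal alone the difference was 0.28 (0.32 in series 1 and 0.25 in series 2). In the input alone it was -0.32 (-0.15 in series 1 and -0.48 in series 2). The interior windows minus these end windows gave 0.014 and 0.72 in wild type and -0.37 and -0.12 in the labelled arrays. The genotypes thus differed by -0.61 in this contrast (-0.39 in series 1, -0.84 in series 2), and wild type was higher without overlap (the exact permutation test gave p = 0.33, the smallest possible).

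Wild-type array 2 was the shallowest of the 4 in the BrdU-poor interior and the deepest at the ends. Without it the difference between the 2 kinds of window was -0.26, and without wild-type array 1 it was -0.97. With the Cy5 signal alone it was -0.49, and with the input alone 0.13. An unadjusted p under 0.05 with a higher value in the labelled arrays was found in 72 of the 97 end windows (74.2%) and in 6 of the 402 interior windows (1.49%), against 3.82% of all windows. Among interior windows of chromosomes 1 and 2, the genotype difference stayed within the spread at each distance from the ends. It was -0.048 in the 90 windows at 100 to 300 kb, -0.076 in the 117 at 300 to 1000 kb and -0.039 in the 193 farther in, with SDs between wild-type arrays of 0.15 to 0.21.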

How the data were processed

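The members and lists were chosen with earlier results of these data known. BrdU-immunoprecipitated DNA (Cy5) and input DNA (Cy3) were measured on 4 arrays. Per the submitters' processing notes, signals were extracted with Agilent Feature Extraction, of version 12.0 on 3 arrays and 11.5 on wild-type array 2 per the file headers. The deposited files hold intensity values, per the file headers background-subtracted and scaled by a linear dye normalization factor per channel, and median and background intensities. The deposited LogRatio column (log10, red over green) served only to settle direction. A linear ratio, deposited in the series matrix, matched the processed signals to within 0.013 on the log2 scale. Flags (unit other) in the deposited files mark, among others, spots well above background. The genome build is not given in the sources used here.

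Of 42968 spots, 41551 were probes, 41251 of them on the chromosomes, and none saturated. Log2 ratios of the processed signals, centred by array on the median, were averaged in 2 kb windows with at least 3 probes (7 for most members). limma 3.58.1 (lmFit, eBayes; R 4.3.3) fitted genotype as the only term over all 6223 windows. Its two-sided p-values were adjusted by Benjamini-Hochberg, with 0.05 as threshold, and the fit was tested on simulated data. Array means were compared with the exact permutation test. Tables were made with pandas 2.3.3 and figures with matplotlib 3.10.9. Alternatives covered background correction, normalization, scale, probes, thresholds, window sizes, the choice of arrays and the series as a block. Text names the 10 longest domains, the 5 of at least 2 windows that rose or fell most with the same sign in both series, the 2 lowest windows of each chromosome and the windows nearest to the threshold. Genes and sequences were not used, since no coordinates were converted.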

Additional observations from a re-analysis of the deposited data

Results flagged for a closer look

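The genotype difference of the 402 BrdU-poor interior windows had opposite signs in the 2 series, 0.073 in series 1 and -0.18 in series 2 (log2, labelled fft3Δ minus wild type, 1 array of each genotype per series). The difference between the series was not tested. Wild-type array 2, the only wild-type array of series 2, was 0.24 above wild-type array 1 in these windows, while the 2 labelled arrays differed by 0.013. Its input in these windows was 0.025, against -0.39 to -0.28 on the other 3 arrays, and its part in the difference was not tested.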

How the results depend on the processing

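Counts of BrdU-poor windows and domains followed the threshold and the scale of the ratio. The 402 windows and 92 domains became 670 and 140 with normexp background correction (on median signals, as the files hold no mean signals), 188 and 54 with loess, 757 and 143 with the threshold raised by 0.25, and 185 and 41 with it lowered by 0.25. With windows of 1 kb they were 842 and 209, and with windows of 4 kb 194 and 59. The median domain length of 4 kb became 6 kb with the lowered threshold, 2 kb with 1 kb windows, 12 kb with 4 kb windows, 8 kb when merged across 1 window, and 6 kb when windows were chosen from the labelled fft3Δ arrays alone or with each chromosome centred on its own median. Choosing without 1 array gave 375 to 447 windows in 93 to 110 domains, all with a median of 4 kb.

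The genotype difference of -0.051 turned to 0.032 with normexp when the windows were also rechosen (670 windows; on the same 402 windows it was -0.0057), 0.095 when windows were chosen in series 2 and read in series 1, and 0.044 on chromosome 3 alone (2 windows). The difference beyond other interior windows, -0.043, turned to 0.087, 0.091 and 0.082 in the same settings, and to 0.041 with normexp on the same 402 windows. Leaving out 1 array gave -0.17 to 0.067 for the first and -0.15 to 0.067 for the second, positive only without wild-type array 2. The difference from the chromosome-end windows, -0.61, ranged from -0.97 to -0.26 without 1 array and was 0.13 in the input alone; that comparison and its alternatives were added after seeing the data. Of the 18 named domains 11 were lower in the labelled arrays, where 49 of all 92 domains were. Some of the 18 were named for the sign and size of this same difference, so their count is a description only. The count was 18 with the input alone, 16 with the Cy5 signal alone, 15 with centring on the mode and 14 with loess. It was 13 with the scale equalized, 10 with normexp, and 4 to 14 without 1 array, with 4 when wild-type array 2 was left out. The mean difference in width, 0.16 kb, was -0.84 kb without the domain of largest change, and -0.80 to 1.11 kb without 1 array (both added after seeing the data). The count of BrdU-poor windows called stayed 0 in limma without 1 array (0 to 0), was 8 at an unadjusted p under 0.05, and 2 with the series number as a replicate block. Same-numbered arrays deviated together (r = 0.37 over 6223 windows and 0.22 over the 402 BrdU-poor windows), which with 2 pairs does not establish pairing. The block left the values of the other results as they were. With 2 arrays a group, the number of arrays limits what can be called.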
